A study of Bos taurus with 34 samples.

Results

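The matrix metalloproteinases (MMP genes) and the ADAMTS proteases were described across the lining of the bovine oviduct and uterus. Members were the genes whose symbol is MMP or ADAMTS followed by a number, without the ADAMTS-like genes, and where a gene had several rows in the count table the row of highest mean count was used. The gene table used for names holds 39 such genes, 20 MMP and 19 ADAMTS, and 33 of them, 19 MMP and 14 ADAMTS, had a row among the 38568 rows of the count table. No row was matched to MMP12, ADAMTS6, ADAMTS10, ADAMTS13, ADAMTS16 or ADAMTS17. The rule for members used names and mean counts over all libraries, not a difference between sites, but it was set with earlier results of these data known.

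Both families are zinc-dependent enzymes that cut proteins outside the cell. MMPs are made as inactive precursors, are switched on when a propeptide is removed, and are held in check by the tissue inhibitors of metalloproteinases, the TIMPs. ADAMTS enzymes carry thrombospondin-type repeats and include the aggrecanases, which cut large proteoglycans such as aggrecan and versican, and the enzymes that trim the amino-terminal propeptide of fibrillar collagens. In the uterus and oviduct of mammals these enzymes are known for the turnover of stromal matrix over the oestrous cycle, at implantation and after birth.

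The animals were 5 adult Holstein heifers that had never calved, all synchronised with a CIDR-Synch protocol, which uses a progesterone insert, and all killed on day 2 after ovulation. The ampulla, a segment of the oviduct, was sampled on the side of ovulation (ipsilateral) and on the opposite side (contralateral), as were an upper and a middle segment of the uterine horn, and the uterine body was sampled once. This gave 34 libraries at 7 sites with 5 heifers each, except the ipsilateral upper horn with 4, since that library of heifer 11110 was not analysed here. All animals were cycling and at the same stage, without an untreated or pregnant group, and each library is a bulk mixture of the cells at the site.

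Total counts per library ran from 11619486 to 30412782. CPM values, which are counts relative to the library total, carried TMM factors, so a level can be compared between libraries for 1 gene but not between genes, since CPM does not correct for transcript length. The site labels were set beside marker lists, which were written with earlier results of these data known and so are no independent check. Ciliated cell genes were higher in the ampulla for 9 of 9 tested, and oviduct secretory cell genes for 6 of 7, against 29.4% of all rows tested. SLC34A2, on the secretory list, was lower. One endometrial library stood apart: the contralateral mid horn of heifer 10882 held KRT5, a basal keratin, at 454 CPM, against at most 40.5 CPM in the other endometrial libraries and at least 762 CPM in the ampulla. A single row took 29.2% of all counts in heifer 10882's contralateral upper horn and 23.5% in heifer 11033's body, with TMM factors of 0.476 and 0.916, against at most 13.5% in the other libraries. Rows with a count were fewest in the contralateral ampulla of heifer 11070, with 15773, and the contralateral upper horn of heifer 11033, with 16049. Results that move without these libraries are given both ways.

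The ampulla held far less transcript of most members than the endometrium. Of the 33 members, 27 passed the filter on low counts and were tested, and 26 of these were called at an adjusted p under 0.05, 6 higher and 20 lower in the ampulla (edgeR quasi-likelihood test with heifer as a block and Benjamini-Hochberg adjustment over 17241 rows). A row could pass the filter on the counts of a single region. MMP13, with 0 ampulla counts, and MMP19 and ADAMTS18, with 1 each, passed on endometrial counts alone. So did MMP3, MMP1, MMP24, ADAMTS7, MMP20, ADAMTS12, ADAMTS4 and MMP25, with 6, 8, 20, 25, 26, 31, 42 and 49 ampulla counts. For these members a call could only be lower. MMP23 passed on ampulla counts alone, and its call could only be higher. The calls of all these members add no separate support, and they also enter the counts and medians below. Over all rows tested, 64.9% were called, 29.4% higher and 35.6% lower. The median log2 fold change, ampulla over endometrium, was -3.11 for the tested members and -0.18 for all rows, and -0.27 for all rows with DESeq2 size factors. MMP genes gave 3 higher, 12 lower and 1 not called of 16, with a median of -3.38. ADAMTS genes gave 3 higher and 8 lower of 11, with a median of -2.83. In 10 of the 27 tested members, all called lower, every ampulla library lay below every endometrial library, which held for 6.54% of all rows tested. Of these 10, MMP3, MMP24, MMP25 and ADAMTS4 had passed the filter on endometrial counts alone, which fixed their direction. In 0 of the 27 did every ampulla library lie above, which held for 5.12% of all rows tested. A mean of at least 1 CPM was reached by 15 members in the ampulla and 22 in the endometrium.

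**Figure D1:**
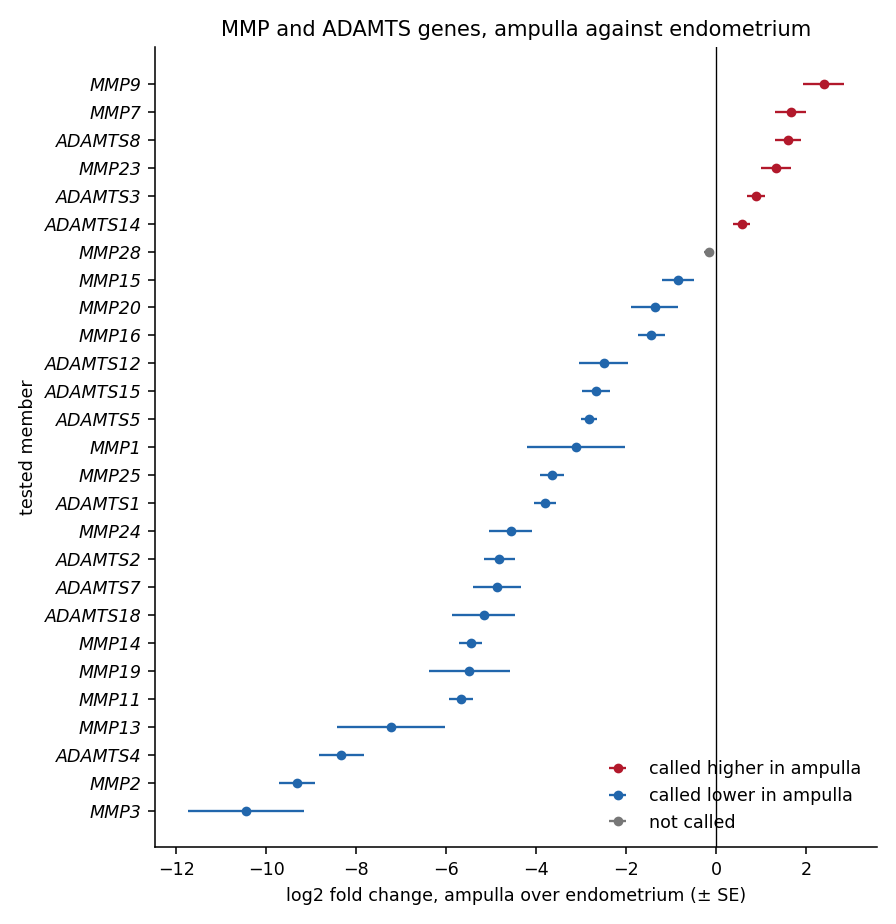
Log2 fold change of the 27 tested members, ampulla over endometrium, with the standard error (x axis), ordered by value from the highest to the lowest (y axis); colour marks members called higher, called lower or not called at an adjusted p under 0.05. The 20 members called lower run from -0.85 (MMP15) to -10.46 (MMP3), and the 6 called higher from 0.57 (ADAMTS14) to 2.39 (MMP9).

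Values below are the lowest, median and highest library, with 10 ampulla and 24 endometrial libraries, and a mean ± SD is over 5 heifers after averaging the libraries of a region. Log2 fold changes are given ± SE with the edgeR adjusted p. Endometrium means the upper horn, mid horn and body with equal weight. Members given in detail were the 14 called in the same direction in all heifers with the largest changes, and other members named with values were chosen after their values were seen.

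The gelatinases are MMP2 and MMP9, which digest denatured collagen and basement membrane collagen. MMP2 lay at 0.559, 5.95 and 12.0 CPM in the ampulla, against 1350, 3369 and 6144 CPM in the endometrium. The ranges were far apart in every animal. Its mean was 5.53 ± 2.98 CPM in the ampulla, against 3428 ± 584 CPM in the endometrium (log2 fold change -9.32 ± 0.40, edgeR adjusted p = 7.40e-19), lower in 5 of 5 heifers. Within the endometrium MMP2 varied 4.55-fold between the lowest and the highest library.

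MMP9 went the other way. It lay at 1.57, 3.58 and 6.28 CPM in the ampulla, against 0, 0.423 and 33.2 CPM in the endometrium. The ampulla libraries were close together, and the endometrial ones ran from below to above them. The log2 fold change was 2.39 ± 0.46 (edgeR adjusted p = 3.42e-05), higher in 5 of 5 heifers on the log scale, although the plain means of 3.71 ± 1.56 CPM in the ampulla, against 2.85 ± 4.31 CPM in the endometrium were close. With counts summed per heifer and region the value was 1.33 with an edgeR adjusted p of 0.125, and the call was lost.

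The membrane-type enzymes sit at the cell surface, and MMP14, also called MT1-MMP, is known as the activator of the MMP2 precursor. MMP14 lay at 17.4, 84.2 and 114 CPM in the ampulla, against 653, 3042 and 6459 CPM in the endometrium. No ampulla library reached the endometrial range. The means were 71.6 ± 28.5 CPM in the ampulla, against 3181 ± 1463 CPM in the endometrium, with a log2 fold change of -5.46 ± 0.25 (edgeR adjusted p = 3.74e-18). MMP24 and MMP25, also membrane-bound, were likewise without overlap, at -4.57 ± 0.48 and -3.65 ± 0.26. MMP24 lies next to the antisense gene MMP24OS in the RefSeq order and the strand setting of the counting is not known, so its counts may hold reads of that gene. MMP16 was lower by less, at -1.44 ± 0.30 with overlapping ranges.

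MMP15 was the membrane-type member with the smallest called change, at 3.86 ± 1.93 CPM in the ampulla, against 6.69 ± 1.54 CPM in the endometrium. Its log2 fold change of -0.85 ± 0.36 (edgeR adjusted p = 0.0418) held in 4 of 5 heifers. The call was lost without the heifer block (adjusted p = 0.0580) , without heifer 10882, 11070 or 11110 (edgeR adjusted p = 0.0623, 0.149 and 0.131) and without the libraries in which 1 row took 29.2% or 23.5% of counts (edgeR adjusted p = 0.0513). MMP17 had 0 counts in the ampulla and 36 in the endometrium and was not tested.

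The collagenases MMP1, MMP8 and MMP13 cut intact fibrillar collagen. MMP13 had no count in any of the 10 ampulla libraries, against 0, 0.998 and 3.56 CPM in the endometrium. Taken against 3 counts over all ampulla libraries, it was at least 72.9-fold lower there (edgeR adjusted p = 1.53e-05). MMP1 was low in most libraries of both regions, at 0, 0 and 0.155 CPM in the ampulla, against 0, 0.172 and 27.7 CPM in the endometrium. Its log2 fold change of -3.11 ± 1.09 (edgeR adjusted p = 0.0137) was not called with DESeq2 (-2.01, adjusted p = 0.148), without heifer 10872 (-1.74, edgeR adjusted p = 0.253) or without heifer 11110 (-1.81, edgeR adjusted p = 0.157). MMP8, the neutrophil collagenase, had 0 counts in the ampulla and 4 in the endometrium.

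MMP3 and MMP11 are stromelysins; MMP3 has a broad range of matrix substrates and can activate other MMP precursors. MMP3 lay at 0, 0 and 0.197 CPM in the ampulla, against 0.258, 20.3 and 1164 CPM in the endometrium. The regions did not overlap, and the endometrial libraries themselves spanned 4509-fold. The log2 fold change of -10.46 ± 1.29 (edgeR adjusted p = 1.31e-07) had the largest size among the tested members, and it ranged from -11.40 to -9.39 with 1 heifer left out. MMP11, which is usually made by stromal cells, lay at 6.24, 7.87 and 8.87 CPM in the ampulla, against 124, 384 and 1065 CPM in the endometrium. Its ampulla level was steady from library to library, with a mean of 7.80 ± 0.288 CPM in the ampulla, against 451 ± 213 CPM in the endometrium. The log2 fold change was -5.67 ± 0.27 (edgeR adjusted p = 8.55e-18).

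**Figure D2:**
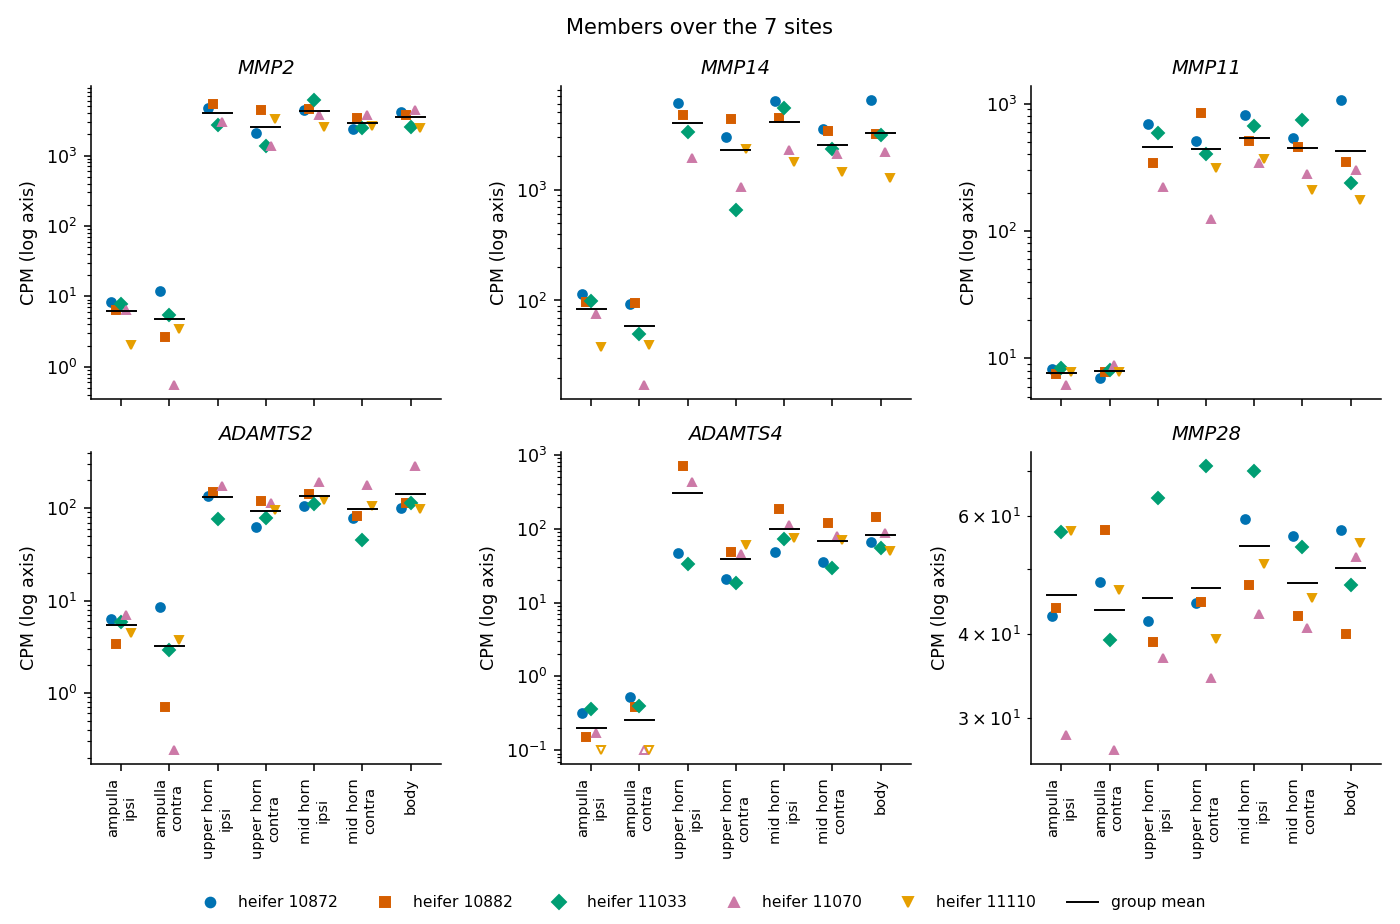
CPM on log axes for MMP2, MMP14, MMP11, ADAMTS2, ADAMTS4 and MMP28 at the 7 sites, 1 point per library with shape and colour marking the heifer and a line at the group mean; open symbols at 0.1 CPM stand for libraries at 0. The 5 members other than MMP28 show ampulla libraries below all endometrial libraries, and MMP28 lies between 26.9 and 71.2 CPM at all sites.

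MMP7, or matrilysin, is a small enzyme that glandular epithelium makes in many organs, the uterus of mice included. It lay at 29.8, 50.3 and 161 CPM in the ampulla, against 3.16, 19.8 and 52.9 CPM in the endometrium. The upper part of the endometrial range reached the ampulla median, and heifer 10872 was the one in which the ampulla was not higher. The mean was 62.7 ± 27.9 CPM in the ampulla, against 21.9 ± 11.1 CPM in the endometrium (log2 fold change 1.66 ± 0.34, edgeR adjusted p = 9.14e-05). In the RefSeq order MMP7, MMP20, MMP27 and MMP8 follow each other, and so do MMP13, MMP12, MMP3 and MMP1. MMP7 was called higher and its neighbour MMP20 lower, and the 3 measured genes of the other run, MMP13, MMP3 and MMP1, were called lower.

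MMP20, the enamel protease, was low everywhere, at 0.153 ± 0.104 CPM in the ampulla, against 0.457 ± 0.318 CPM in the endometrium. Its log2 fold change of -1.37 ± 0.52 (edgeR adjusted p = 0.0215) lost the call without heifer 10872 (adjusted p = 0.153) and without heifer 11033 (edgeR adjusted p = 0.0787). MMP19 had 1 count in the ampulla, in the ipsilateral library of heifer 10882, against 0, 0.350 and 1.86 CPM in the endometrium. Its endometrial level was 77.9-fold that of the ampulla, with a 95% counting interval from 13.8 upward (edgeR adjusted p = 5.68e-06), and the interval covers counting error only. MMP27 had 0 counts in the ampulla and 3 in the endometrium.

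MMP23, a membrane-anchored member that lacks the usual haemopexin domain, was higher in the ampulla at low levels. It lay at 0.0799, 0.653 and 0.983 CPM in the ampulla, against 0.0455, 0.198 and 0.453 CPM in the endometrium. The lowest ampulla libraries were the contralateral ones of heifers 11070 and 11110, inside the endometrial range. This gave a log2 fold change of 1.33 ± 0.34 (edgeR adjusted p = 0.00107), higher in 5 of 5 heifers. MMP23 passed the filter on low counts through ampulla libraries alone, so its call could only be higher. MMP28, or epilysin, known from epithelia such as skin, was the tested member without a call. It averaged 44.6 ± 9.82 CPM in the ampulla, against 48.9 ± 6.97 CPM in the endometrium (log2 fold change -0.15 ± 0.11, edgeR adjusted p = 0.261). With DESeq2 size factors in edgeR, or with DESeq2, it was -0.24 and called lower (edgeR adjusted p = 0.0466, DESeq2 adjusted p = 0.0429). Its endometrial libraries differed by at most 2.07-fold.

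The aggrecanase group of the ADAMTS family comprised ADAMTS1, ADAMTS4, ADAMTS5, ADAMTS8, ADAMTS9, ADAMTS15 and ADAMTS20. ADAMTS4, one of the main aggrecan-cutting enzymes of cartilage, lay at 0, 0.244 and 0.523 CPM in the ampulla, against 18.6, 63.5 and 715 CPM in the endometrium. The highest ampulla library was far below the lowest endometrial one. Means were 0.230 ± 0.182 CPM in the ampulla, against 104 ± 78.9 CPM in the endometrium, with a log2 fold change of -8.34 ± 0.50 (edgeR adjusted p = 8.62e-15), lower in 5 of 5 heifers.

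ADAMTS1, known in mice for its part in ovulation through versican cleavage, averaged 27.7 ± 11 CPM in the ampulla, against 393 ± 132 CPM in the endometrium. ADAMTS5, the other main aggrecanase of cartilage, averaged 5.14 ± 0.994 CPM in the ampulla, against 37.3 ± 5.56 CPM in the endometrium. These genes are neighbours in the RefSeq order and both were lower without overlap, at -3.80 ± 0.24 and -2.83 ± 0.18 (edgeR adjusted p = 5.49e-15 and 1.23e-14). A second row of ADAMTS5, with a mean count of 357.9 against 617.8 for the row used, is not in the ADAMTS5 values given here.

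ADAMTS8 and ADAMTS15 are neighbours too, yet their changes had opposite signs. ADAMTS8 lay at 0.784, 1.06 and 2.05 CPM in the ampulla, against 0.0445, 0.375 and 1.18 CPM in the endometrium. All ampulla libraries were above the endometrial median, and the upper end of the endometrial range ran into them. The fitted log2 fold change was 1.59 ± 0.29 (edgeR adjusted p = 2.06e-05), higher in 5 of 5 heifers. ADAMTS15 averaged 6.18 ± 3.38 CPM in the ampulla, against 41.2 ± 18.3 CPM in the endometrium, with a log2 fold change of -2.68 ± 0.31. ADAMTS9 and ADAMTS20 had 0 counts in the ampulla and 8 and 14 in the endometrium and were not tested.

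The procollagen aminopropeptidases ADAMTS2, ADAMTS3 and ADAMTS14 were split. ADAMTS2, the enzyme whose loss causes dermatosparaxis in cattle, lay at 0.240, 4.09 and 8.42 CPM in the ampulla, against 45.2, 113 and 288 CPM in the endometrium. The ranges did not meet, and the mean was 4.30 ± 1.94 CPM in the ampulla, against 123 ± 47.4 CPM in the endometrium. Its log2 fold change was -4.82 ± 0.35 (edgeR adjusted p = 3.21e-13). ADAMTS3, which also processes the lymphatic growth factor VEGFC, lay at 8.88, 14.2 and 25.9 CPM in the ampulla, against 2.47, 8.03 and 15.4 CPM in the endometrium. The ranges overlapped, and all 5 heifers had more in the ampulla, with a log2 fold change of 0.88 ± 0.20 (edgeR adjusted p = 0.000289).

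ADAMTS14 gave the smallest called rise, with 27.7 ± 9.13 CPM in the ampulla, against 18.4 ± 3.20 CPM in the endometrium. Its log2 fold change of 0.57 ± 0.19 (edgeR adjusted p = 0.00997) held in 4 of 5 heifers. It was not called without heifer 10882 or 11110 (edgeR adjusted p = 0.0985 and 0.102) or with counts summed per heifer and region (edgeR adjusted p = 0.0960).

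ADAMTS7 and ADAMTS12, which both cut the cartilage protein COMP, were lower. ADAMTS7 lay at 0, 0.0524 and 0.650 CPM in the ampulla, against 0.257, 2.28 and 8.97 CPM in the endometrium. The ipsilateral ampulla libraries of heifers 10882 and 11070 reached the endometrial range, and the log2 fold change was -4.88 ± 0.53 (edgeR adjusted p = 1.50e-09). ADAMTS12 gave -2.50 ± 0.54 with overlapping ranges. ADAMTS18 had 1 count in the ampulla, against 0, 0.329 and 1.11 CPM in the endometrium. Its endometrial level was 71.8-fold that of the ampulla, with a 95% counting interval from 12.8 upward (edgeR adjusted p = 3.02e-07). ADAMTS19 had 3 counts in the ampulla and 25 in the endometrium and was not tested.

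**Figure D3:**
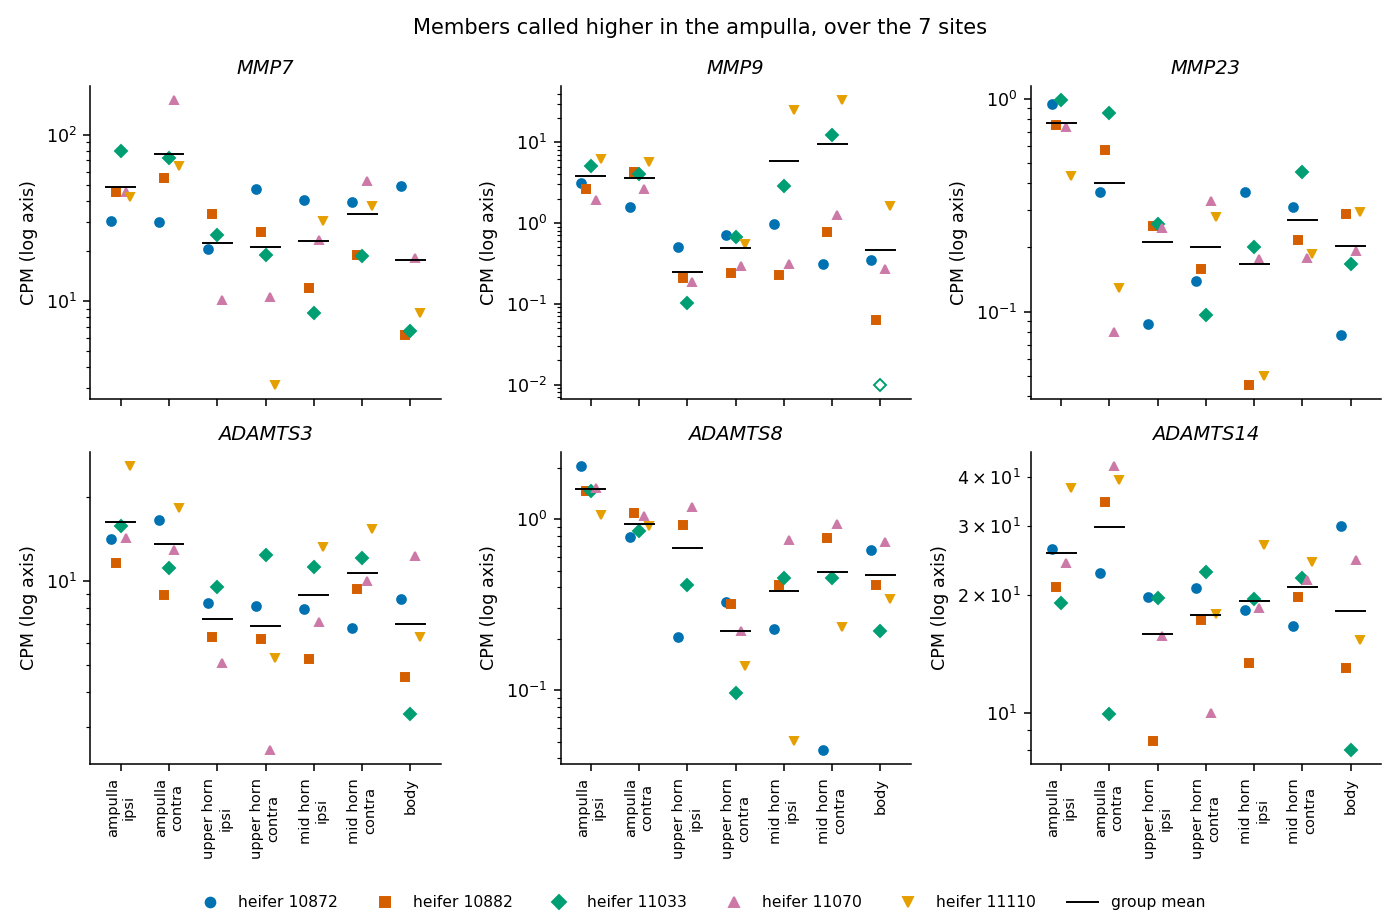
CPM on log axes for the 6 members called higher in the ampulla (MMP7, MMP9, MMP23, ADAMTS3, ADAMTS8 and ADAMTS14) at the 7 sites, 1 point per library with shape and colour marking the heifer and a line at the group mean; an open symbol at 0.01 CPM stands for a library at 0. Ampulla and endometrial libraries overlap for each of the 6, as for MMP9 with 1.57 to 6.28 CPM in the ampulla, against 0 to 33.2 CPM in the endometrium.

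The genes that restrain or activate these enzymes were read from lists. Of the TIMPs, TIMP2 averaged 2427 ± 1124 CPM in the ampulla, against 750 ± 207 CPM in the endometrium, and TIMP4 83.7 ± 16.4 CPM in the ampulla, against 13.3 ± 3.76 CPM in the endometrium. Both rose, by 1.35 ± 0.17 and 2.71 ± 0.15 on the log2 scale (edgeR adjusted p = 2.44e-08 and 3.28e-16). TIMP3, the TIMP that binds to matrix and inhibits aggrecanases, was lower, at 223 ± 64.1 CPM in the ampulla, against 652 ± 118 CPM in the endometrium (log2 fold change -1.52 ± 0.15, edgeR adjusted p = 3.51e-10). TIMP1 had no row. Of the 3 TIMPs with a row, 2 were thus higher and 1 lower, while 20 of the 27 tested proteases were lower.

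Among 6 tested other inhibitors, 2 were higher and 4 lower, with a median log2 fold change of -4.74. RECK, a membrane-anchored MMP inhibitor, averaged 0.0483 ± 0.0628 CPM in the ampulla, against 2.92 ± 0.284 CPM in the endometrium (-6.85 ± 0.53). SERPINE2, which inhibits plasminogen activators, had 3 counts in the ampulla, and its endometrial level was 124-fold that of the ampulla (95% counting interval 42.2 to 600). PAPLN, or papilin, had no count in the ampulla and was at least 13.8-fold lower there. Among 7 tested activators, 2 were higher and 4 lower, with a median of -1.09. The meprin subunits went opposite ways: MEP1A averaged 0.741 ± 0.412 CPM in the ampulla, against 0.0208 ± 0.0106 CPM in the endometrium (4.71 ± 0.50), while MEP1B had no count in the ampulla and was at least 24.3-fold lower there. PCSK5, a proprotein convertase, averaged 3.17 ± 1.76 CPM in the ampulla, against 57.2 ± 5.24 CPM in the endometrium (-4.24 ± 0.24).

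Of the related ADAM proteases 0 of 5 tested were higher and 4 lower, with a median of -1.99, the largest changes being those of ADAM33 (-3.33 ± 0.27), ADAM12 (-2.51 ± 0.27) and ADAM19 (-1.99 ± 0.24). The 1 tested ADAMTS-like gene, THSD4, gave -0.52 ± 0.29 (edgeR adjusted p = 0.113). Matrix proteins that these enzymes cut were lower for 11 of 12 tested and higher for 1, with a median of -5.45. DCN, the collagen-binding proteoglycan decorin, had no count in the ampulla and was at least 2510-fold lower there, and the fibrillar collagen COL3A1 averaged 9.22 ± 5.46 CPM in the ampulla, against 28311 ± 3709 CPM in the endometrium.

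Markers of stroma, vessels, muscle and leukocytes were lower in the ampulla together with the proteases. Stroma markers were lower in the ampulla for 10 of 10 tested, with a median log2 fold change of -8.62, and their summed level was 44.1 to 134 CPM in ampulla libraries and 37955 to 86944 CPM in endometrial libraries. The stroma markers COL6A2, DCN, LUM, PDGFRA and PDGFRB had no count in the ampulla and 1357, 22437, 1150, 332 and 46 counts in the endometrium. Endothelial markers were lower for 8 of 8 tested (sums of 3.74 to 11.3 CPM in the ampulla, against 484 to 1090 CPM in the endometrium). CLDN5 and VWF had no count in the ampulla and 36616 and 188 counts in the endometrium, whereas PECAM1, CDH5 and EGFL7, also without a count in the ampulla, had 2, 12 and 8 in the endometrium, too few to show a difference. Smooth muscle markers were lower for 8 of 8 (8.31 to 21.1 CPM in the ampulla, against 228 to 4647 CPM in the endometrium). ACTA2, TAGLN and SMTN had no count in the ampulla and 173, 337 and 173 in the endometrium, and MYH11 had 0 in the ampulla and 2 in the endometrium. Leukocyte markers were lower for 6 of 7 (16.3 to 47.3 CPM in the ampulla, against 105 to 344 CPM in the endometrium), PTPRC and CD68 having at most 3 counts in either region. General epithelial markers were higher for 6 of 8 and lower for 1 (5976 to 7945 CPM in the ampulla, against 978 to 4403 CPM in the endometrium). In bulk samples fewer cells of a type and less RNA per cell cannot be told apart, and the part of cell makeup in the protease differences was not tested.

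Along the uterus the members differed little beyond the spread between heifers. Between the upper and the mid horn 0 members and 0.0174% of all rows were called, and 2 of the 27 members and 6.08% of all rows had an unadjusted p under 0.05. Between the upper horn and the body 0 members and 0.0232% of all rows were called, and 2 members and 11.2% of all rows had an unadjusted p under 0.05. DESeq2 called 1 member between the upper and the mid horn, MMP9, lower in the upper horn (-2.64, DESeq2 adjusted p = 0.00410), with 0.410% of all rows, and 0 members between the upper horn and the body. Between the mid horn and the body 1 member, MMP9, and 4.45% of all rows were called, and 4 members and 28.0% of all rows had an unadjusted p under 0.05. In the 2 contrasts with the body the members thus had no larger a share of low p-values than the rows at large.

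MMP9 was higher in the mid horn than in the body. In heifers 10872, 10882, 11033, 11070 and 11110 the ipsilateral mid horn held 0.961, 0.227, 2.83, 0.309 and 24.7 CPM and the contralateral mid horn 0.311, 0.778, 12.4, 1.25 and 33.2 CPM, against 0.349, 0.0635, 0, 0.271 and 1.61 CPM in the body. Heifers 11110 and 11033 had the highest mid horn levels, and the ranges of the mid horn and the body overlapped. In each of the 5 heifers the mid horn averaged above the body, with a log2 fold change of 3.31 ± 0.80 (edgeR adjusted p = 0.0408). The upper horn lay between 0.103 and 0.702 CPM. The call did not hold without the heifer block (4.03, edgeR adjusted p = 0.155), without heifer 10882, 11033 or 11070 (edgeR adjusted p = 0.221, 0.367 and 0.107), or without the contralateral mid horn library of heifer 10882 (3.46, edgeR adjusted p = 0.0675), where 1 of all rows was called against 767 with it. It was also lost without the body library of heifer 11033 and the contralateral upper horn library of heifer 10882 (2.88, edgeR adjusted p = 0.471).

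MMP1, MMP13 and ADAMTS7 came closest after MMP9. MMP1 gave 3.59 ± 1.09 (edgeR adjusted p = 0.0516) and MMP13 2.73 ± 0.92 (edgeR adjusted p = 0.0700), with higher values in the mid horn than in the body in 5 of 5 heifers. ADAMTS7 gave -1.40 ± 0.48 (edgeR adjusted p = 0.0681), with lower values in 5 of 5 heifers. DESeq2 called MMP13 (2.79, adjusted p = 0.0234) and ADAMTS7 (-1.54, DESeq2 adjusted p = 0.0319), 3 members in all with MMP9, in a contrast where it called 12.7% of all rows.

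Heifer 11110 carried the highest mid horn levels of MMP3, MMP1 and MMP9. MMP3 stood at 507 CPM in its ipsilateral and 1164 CPM in its contralateral mid horn, while the other 8 mid horn libraries lay between 6.18 and 181 CPM. MMP1 stood at 7.17 and 27.7 CPM in these libraries of heifer 11110, against at most 1.62 CPM in the other mid horn libraries. Its body library was also the highest of the 5 bodies for MMP3, MMP1 and MMP9, at 137, 0.974 and 1.61 CPM. Its contralateral upper horn was not high, at 3.16 CPM for MMP3, 0 for MMP1 and 0.557 CPM for MMP9. The leukocyte markers summed to 217 and 154 CPM in its ipsilateral and contralateral mid horn, inside the range of 139 to 344 CPM of all mid horn libraries. CSF1R and CD14 had the highest endometrial means of these markers, at 134 and 49.9 CPM. The part of leukocytes in the levels of heifer 11110 was not tested.

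**Figure D4:**
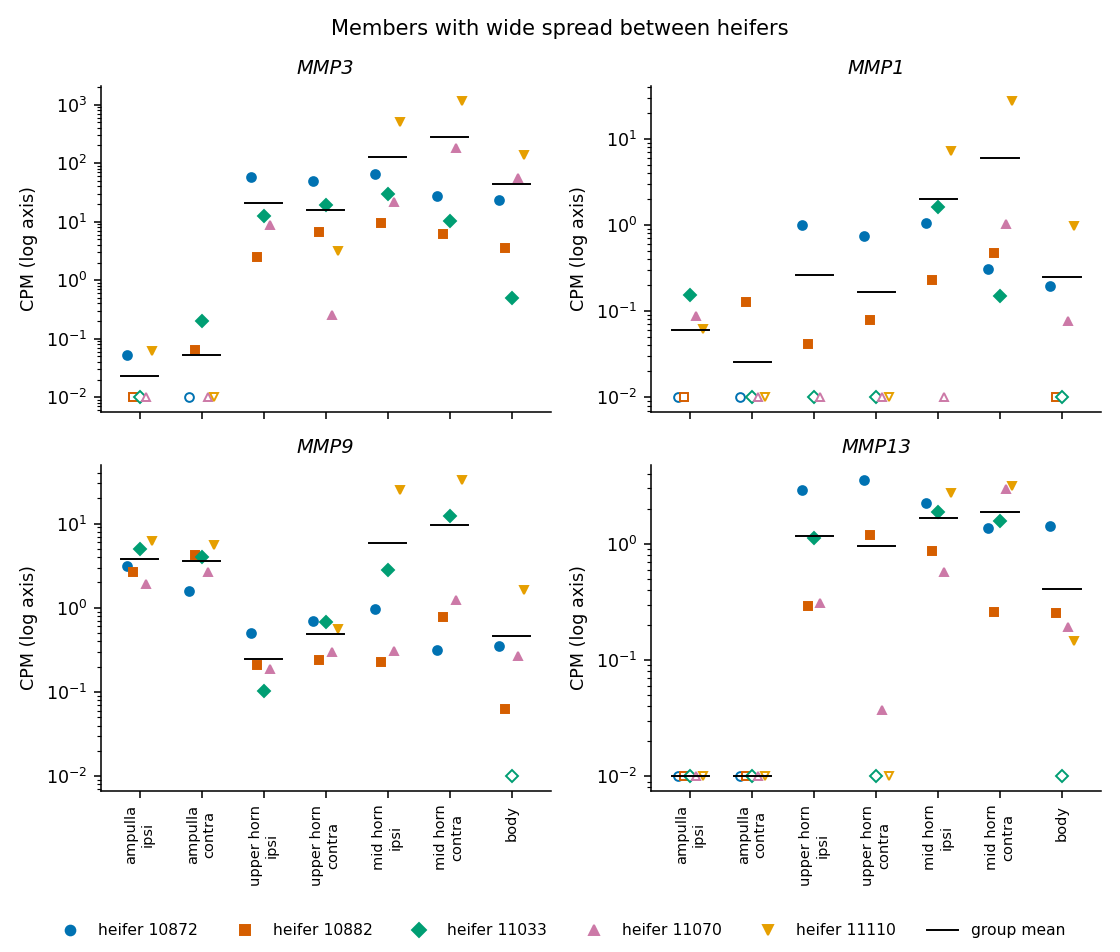
CPM on log axes for MMP3, MMP1, MMP9 and MMP13 at the 7 sites, 1 point per library with shape and colour marking the heifer and a line at the group mean; open symbols at 0.01 CPM stand for libraries at 0, and the MMP13 ampulla means drawn there are 0. Heifer 11110 has the highest mid horn points of MMP3 (507 and 1164 CPM), MMP1 (7.17 and 27.7 CPM) and MMP9 (24.7 and 33.2 CPM).

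The study sampled both sides of the tract, which asks whether the side that ovulated differs. In the ampulla 0 members and 0.0174% of all rows were called between the ipsilateral and the contralateral side, and 3 of the 27 members and 7.25% of all rows had an unadjusted p under 0.05. In the upper horn 0 members and 0.00580% of all rows were called, and 6 members and 6.89% of all rows had an unadjusted p under 0.05. In the mid horn 0 members and 0% of all rows were called, and 1 member and 2.98% of all rows had an unadjusted p under 0.05. DESeq2 called 0 members in the ampulla, 1 in the upper horn, with 0.191% of all rows, and 0 in the mid horn, with 98 rows. The test of whether the side difference was unlike in the ampulla and the horns called 0 members and 0% of all rows, and 2 members and 5.32% of all rows had an unadjusted p under 0.05, while DESeq2 called 0 members and 120 rows.

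The 6 members of the upper horn with an unadjusted p under 0.05 were all ADAMTS genes with higher ipsilateral values. ADAMTS4 held 47.2, 715, 33.4 and 430 CPM in the ipsilateral upper horn of heifers 10872, 10882, 11033 and 11070, against 21.0, 48.3, 18.6 and 45.0 CPM in the contralateral upper horn of the same animals. Heifers 10882 and 11070 stood out on the ipsilateral side, and the contralateral value of heifer 11110, 60.8 CPM, lay above the other ipsilateral ones. The log2 fold change was 2.47 ± 0.55 with an edgeR adjusted p of 0.316, so it was not called, while DESeq2 gave 2.52 with an adjusted p of 0.0278. It ranged from 1.87 to 2.78 with 1 heifer left out.

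ADAMTS1 held 468, 1073, 272 and 780 CPM in the ipsilateral upper horn, against 223, 319, 344 and 113 CPM in the contralateral one, higher in 3 of 4 heifers and lower in heifer 11033. That made a log2 fold change of 1.25 ± 0.34 (edgeR adjusted p = 0.525). ADAMTS5 held 53.6, 69.7, 39.5 and 42.3 CPM in the ipsilateral upper horn, against 24.2, 29.5, 21.3 and 17.6 CPM in the contralateral one. All 4 heifers had more on the ipsilateral side, with the ranges of both sides apart, heifer 11110 included at 31.7 CPM on the contralateral side, and a log2 fold change of 1.02 ± 0.28 (edgeR adjusted p = 0.524). ADAMTS12, ADAMTS8 and ADAMTS15 gave 1.76 ± 0.80, 1.28 ± 0.58 and 1.03 ± 0.48, each with an edgeR adjusted p of 0.706.

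Over the 9 pairs of ipsilateral and contralateral horn libraries of the same heifer, MMP14, ADAMTS4 and ADAMTS15 were higher on the ipsilateral side in all 9. That is 3 of the 27 tested members, whereas 0.853% of all rows did so. MMP14 held 6028, 4779, 3357 and 1944 CPM in the ipsilateral upper horn, against 2990, 4392, 653 and 1065 CPM in the contralateral one. In the mid horn of the 5 heifers it held 6315, 4410, 5514, 2277 and 1789 CPM on the ipsilateral side, against 3520, 3391, 2348, 2089 and 1451 CPM on the contralateral side. The ranges of the sides overlapped in both segments, and heifer 11033 had the largest ratio between its sides in each. Its contralateral upper horn library was among those with the fewest rows detected, at 16049. At least 7 of 9 pairs were higher on the ipsilateral side for 12 of the 27 members, or 44.4%, against 16.4% of all rows. Members share their libraries, so these counts are a description without a test.

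The stroma marker sum was higher on the ipsilateral side in 8 of the 9 pairs and the matrix substrate sum in 8, the smooth muscle sum in 7, the endothelial and leukocyte sums in 6 each, and the general epithelial sum in 4. The stroma and substrate sums share COL1A2, COL3A1 and DCN. COL1A2 and COL3A1 averaged 20482 and 28311 CPM in the endometrium, so these sums are not separate results. Smooth muscle markers summed to between 604 and 4647 CPM in the ipsilateral upper horn and between 239 and 1521 CPM in the contralateral one, with the highest ipsilateral sums in heifers 11033 and 10882. The part of these markers in the side differences of the proteases was not tested.

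**Figure D5:**
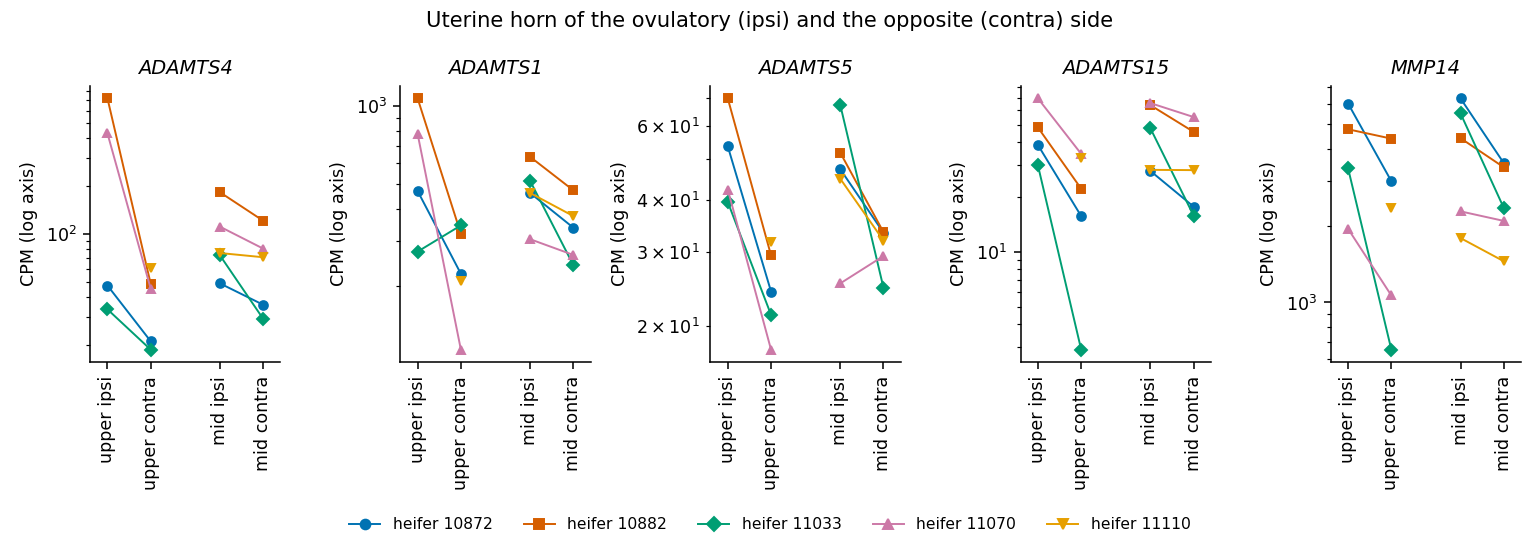
CPM on log axes for ADAMTS4, ADAMTS1, ADAMTS5, ADAMTS15 and MMP14 in the ipsilateral (ipsi) and contralateral (contra) upper and mid horn, with a line joining the sides of 1 heifer; the ipsilateral upper horn of heifer 11110 was not analysed here. All lines of ADAMTS4, ADAMTS15 and MMP14 fall towards the contralateral side, 9 of 9 pairs, and ADAMTS4 in the ipsilateral upper horn spans 33.4 to 715 CPM.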

How the data were processed

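RNA was measured in 34 libraries, prepared with a directional kit according to the labels. The deposited values were raw counts per row and library, and most rows carried a RefSeq transcript accession. The submitters' processing notes list STAR 2.7.9a, Cutadapt, SAMtools and HTSeq but not what each did. Not given in the sources used here were the genome build, the annotation and the strand setting. Where transcripts of a gene share reads, counting by transcript can lower its level, and members with several annotated transcripts or near copies are uncertain for that reason. Among members with a row, MMP17, MMP19, MMP23, MMP25, MMP27, MMP28, ADAMTS7, ADAMTS9, ADAMTS14, ADAMTS18 and ADAMTS20 had more annotated transcripts than rows. A RefSeq gene table (ARS-UCD2.0) gave names for 26362 rows and 21554 genes and the neighbour order; no coordinates were used. MMP15, ADAMTS3, ADAMTS5 and ADAMTS20 had several rows.

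Tests used edgeR 4.0.16 (R 4.3.3) with TMM, filterByExpr, robust quasi-likelihood fits of group and heifer over 34 libraries, and 8 contrasts, with Benjamini-Hochberg adjustment over 17241 rows and calls at an adjusted p under 0.05. DESeq2 1.42.0 was an alternative. The script was tested on simulated data. Heifers pair the sites by the labels: deviations from group means correlated with a median of 0.207 over 99 library pairs of the same heifer and -0.0539 over 396 other pairs. Directions per heifer used log2(CPM + 0.1). A fold against 0 counts is a bound set at 3 counts over the region's libraries. Detail by library went to members called between ampulla and endometrium in the same direction in every heifer, up to 10 each way by size, and to members called in another contrast. Members, lists, tests and alternatives were chosen with earlier results of these data known. Stroma, endothelium, smooth muscle, leukocyte, general epithelium, ciliated and oviduct secretory markers, and TIMPs, other inhibitors, activators, ADAMTS-like genes, ADAMs and substrates, were the lists.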

Additional observations from a re-analysis of the deposited data

Results flagged for a closer look

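Among 98 groups of 4 or 5 libraries, for the 14 members described in detail, 11 held a library far from the rest of its group. The groups share heifers and libraries, and single counts set some of the values. The count is therefore a description without a test. In heifer 11110, MMP3 stood at 507 CPM in the ipsilateral mid horn, with 9.64 to 65.3 CPM in the others, and at 1164 CPM in the contralateral mid horn, with 6.18 to 181 CPM in the others. MMP9 stood at 24.7 CPM in its ipsilateral mid horn, with 0.227 to 2.83 CPM in the others, and at 1.61 CPM in its body, with 0 to 0.349 CPM in the others.

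In the body of heifer 10872, MMP11 stood at 1065 CPM, with 175 to 351 CPM in the other bodies, and MMP13 at 1.43 CPM, with 0 to 0.254 CPM in the others. ADAMTS2 stood at 288 CPM in the body of heifer 11070, with 97.7 to 115 CPM in the others. MMP23 was low, at 0.0879 CPM, in the ipsilateral upper horn of heifer 10872, with 0.248 to 0.257 CPM in the others. ADAMTS18 stood at 1.11 CPM in the contralateral upper horn of heifer 11070, with 0 to 0.318 CPM in the others. A single count put ADAMTS18 at 0.0656 CPM in the contralateral ampulla of heifer 11033 and MMP19 at 0.05 CPM in the ipsilateral ampulla of heifer 10882, with 0 in the other libraries of those groups.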

How the results depend on the processing

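Between ampulla and endometrium, 360 of 376 member fold changes under an alternative kept their direction and side of the threshold, 14 lost the call, 2 gained it and 0 reversed; those that changed are named in the report. The calls within the uterus and between sides were fragile, and the cause was not tested. Without the replicate block, all rows called came to 1 (upper against mid horn), 1 (mid horn against body), 1 (sides of the ampulla) and 0 (sides of the upper horn), with 0 members higher in the mid horn than the body; without it the ampulla and endometrium differed in 10655 rows, against 11198 with it, and the upper horn and body in 3, against 4. DESeq2 size factors gave 1276 rows and 2 members higher in the mid horn than the body. The DESeq2 test gave 158 rows and 1 member lower for upper against mid horn, 56 for upper horn against body, 2527 with 2 members higher and 1 lower for mid horn against body, 118, 70 and 98 between sides of ampulla, upper and mid horn, 1 member being higher in the ipsilateral upper horn, and 120 for the side interaction. Without the filter on low counts these were 207 rows with 3 members lower, 150, 2057 with 5 higher and 1 lower, 150, 173 with 2 higher, 140, and 116 with 1 lower. With 1 heifer left out, rows called ran from 0 to 2 (upper against mid horn), 2 to 4 (upper horn against body), 0 to 1835 (mid horn against body, with 0 to 2 members higher and 0 to 1 lower), 0 to 4 (sides of the ampulla) and 0 to 8 (sides of the upper horn). Without the contralateral mid horn of heifer 10882, mid horn against body gave 1 row and 0 members higher. Without 3 doubted libraries (that one, and contralateral libraries of heifers 11033, upper horn, and 11070, ampulla), this contrast gave 1228 rows and 2 members higher, and the sides of the upper horn 0 rows. An alternative chosen after seeing the data left out the body of heifer 11033 and the contralateral upper horn of heifer 10882, in which 1 row took a large share of counts; mid horn against body then gave 1 row and 0 members higher, and the sides of the upper horn 0 rows. Depth limits members under about 1 CPM, where single counts set the values. Counting by transcript may also have lowered the level of members with several annotated transcripts, so a value near 0 need not mean low expression of the gene.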
